A study of Mus musculus with 4 samples.

Results

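The genes described here are 10 components and targets of endothelial transforming growth factor beta (TGF-beta) and bone morphogenetic protein (BMP) signalling: the ligand gene Tgfb1, the receptor genes Eng, Acvrl1, Tgfbr1, Tgfbr2 and Bmpr2, the inhibitory genes Smad6 and Smad7, and the target genes Id1 and Id3. They were taken by symbol from the count tables of brain endothelial cells, and all 10 were listed at both stages, among 20194 genes in either table and 16181 in both. RNA came from C57BL/6 mouse embryos at embryonic day 15 (E15) and embryonic day 18 (E18). The groups were UCP2f/f;Tie2-cre at E15, WT at E15, UCP2f/f;Tie2-cre at E18 and WT at E18, each with 1 library. In UCP2f/f;Tie2-cre embryos, called KO below, a floxed Ucp2 gene meets Cre recombinase driven by the Tie2 promoter, which is active in endothelium and also in many blood cells. The series' design text speaks of triplicates, and 1 library per group was analysed here. The sources used here do not say how the cells were isolated, whether embryos were pooled or whether WT embryos carried a floxed allele or Cre.

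Ligands of this family bind pairs of type I and type II receptor kinases, which phosphorylate SMAD proteins that enter the nucleus and act on transcription. In endothelium the type I receptor encoded by Acvrl1 and the co-receptor endoglin, encoded by Eng, respond mainly to circulating BMP ligands, with BMPR2 as a type II partner, whereas TGFBR1 and TGFBR2 respond to TGF-beta. The human genes ENG and ACVRL1 are mutated in hereditary haemorrhagic telangiectasia, and in mice loss of endothelial TGF-beta signalling causes haemorrhage in the embryonic brain. SMAD6 and SMAD7 feed back on the receptors, and Id1 and Id3, which encode inhibitors of helix-loop-helix transcription factors, are direct targets of BMP signalling.

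Libraries held 16328300 and 15542930 reads in genes for KO and WT at E15, and 21992660 and 19075407 for KO and WT at E18. Ucp2, the targeted gene, stood at 163 CPM (counts scaled to the library total) in KO and 276 CPM in WT at E15. At E18 it stood at 149.9 CPM in KO and 351 CPM in WT. Many reads of the gene thus remained in the libraries labelled KO. Counts per gene do not show whether these reads come from intact transcript. The E18 pair also differed in sex-linked transcripts: Xist had 547 reads in KO and 0 in WT, and Ddx3y 0 in KO and 5826 in WT, so genotype and sex cannot be told apart at E18. Xist had 2109 reads in KO and 2549 in WT at E15, so the WT libraries of the 2 stages differ in Xist too, and stage and sex cannot be told apart in WT. In KO, Xist was also lower at E18 than at E15. Ddx3y was not listed at E15, so the sex make-up of the E15 libraries was not checked. Whether sex differs between the stages in KO is not known. The preparation carried endothelial transcripts at a high level, with the 14 pan-endothelial markers summing to 19510 and 16890 CPM in KO and WT at E15, and 19360 and 18840 CPM in KO and WT at E18. The E15 difference in this sum lay in Flt1 (2939 CPM in KO and 1328 CPM in WT) and Cldn5 (7583 CPM in KO and 6151 CPM in WT), and the median of the 14 markers was -0.01 on the log2 scale, with 9 below 0. Without these 2 genes, left out after their values were seen, the sums were 8983 and 9414 CPM in KO and WT at E15. Values relative to the pan-endothelial markers are therefore given below with and without them where a direction turns. Markers of mural cells summed to 4901 and 7345 CPM in KO and WT at E15 and to 11690 and 9369 CPM in KO and WT at E18, and those of microglia and macrophages to 272.5 and 536 CPM at E15 and 155 and 91.0 CPM at E18, in the same order. Fibroblast and meningeal markers summed to 147 to 309 CPM over the 4 libraries, neuronal markers to 43.7 to 106 CPM, neural progenitor and astrocyte markers to 21.1 to 79.2 CPM and erythroid markers to 404 to 918 CPM. In such bulk libraries, fewer cells of a type and less RNA per cell cannot be told apart. Each group being 1 library, no ratio below has a replicate check. The 95% intervals given with them are exact (Clopper-Pearson), were computed from the scaled counts and cover counting error only. Ratios carry a pseudocount of 1 CPM, intervals do not.

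For 7 of the 10 genes, windows at RefSeq start sites of GRCm38.p6 were searched for motifs. Acvrl1, Smad7 and Id1 were not searched, so nothing is said here about motifs at their start sites. Windows of 270 bases were read, with 250 before the annotated start and 20 from it. They were searched on both strands for the palindromic SMAD-binding letters GTCTAGAC, for the shorter CAGAC, and for the GC-rich GGCGCC, to which BMP-activated SMADs are known to bind. None of the 3 motifs contains another. The windows of Eng and Tgfbr2 are shown because these receptor genes lay on opposite sides of 0 when E18 was compared with E15, and those of Smad6 and Id3 because both belong to the feedback and target arm. Sequences run 5′ to 3′ on the gene's strand, and capitals mark the motif letters. They lie at chr2:32646345-32646614 (+) for Eng, chr9:116175344-116175613 (-) for Tgfbr2, chr9:64022040-64022309 (-) for Smad6 and chr4:136143572-136143841 (+) for Id3.
Eng: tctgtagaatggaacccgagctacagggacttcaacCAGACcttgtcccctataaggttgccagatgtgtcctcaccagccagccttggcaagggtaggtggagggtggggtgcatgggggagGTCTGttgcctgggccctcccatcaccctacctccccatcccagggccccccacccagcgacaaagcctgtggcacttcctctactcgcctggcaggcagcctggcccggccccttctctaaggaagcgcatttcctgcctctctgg
Tgfbr2: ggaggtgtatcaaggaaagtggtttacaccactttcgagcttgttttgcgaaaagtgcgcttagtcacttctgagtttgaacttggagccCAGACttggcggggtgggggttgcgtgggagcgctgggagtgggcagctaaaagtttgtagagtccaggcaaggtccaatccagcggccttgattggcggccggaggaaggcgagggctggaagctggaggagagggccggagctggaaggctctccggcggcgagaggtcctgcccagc
Smad6: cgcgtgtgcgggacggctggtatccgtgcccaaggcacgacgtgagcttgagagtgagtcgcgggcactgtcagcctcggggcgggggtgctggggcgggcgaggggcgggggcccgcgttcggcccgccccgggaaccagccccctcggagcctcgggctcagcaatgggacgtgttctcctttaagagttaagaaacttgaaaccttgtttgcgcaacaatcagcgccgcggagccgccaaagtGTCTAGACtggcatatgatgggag
Id3: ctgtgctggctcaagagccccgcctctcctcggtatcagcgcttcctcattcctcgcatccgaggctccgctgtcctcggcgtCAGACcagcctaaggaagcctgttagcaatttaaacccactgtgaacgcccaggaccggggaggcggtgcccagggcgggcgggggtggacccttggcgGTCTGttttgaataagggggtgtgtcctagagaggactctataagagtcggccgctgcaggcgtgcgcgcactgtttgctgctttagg

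GTCTAGAC was found in 1 of the 7 genes, Smad6, where its first base lies 4 bases before the annotated start, and in 60 of all 32851 windows of this length (0.183%). CAGAC was found in 4 of the 7 genes, among them Eng and Id3 with 2 copies each, and in 45.4% of all windows. GGCGCC was found in Bmpr2 and Tgfbr1, and in 10.4% of all windows. A match of letters is a description and not a binding site.

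Transcript levels differed widely among the 10 genes. Per kilobase of annotated exon, Eng was highest, from 585 to 852 CPM per kb over the 4 libraries, and it ranked within the highest 0.206% of genes with reads in each library. The target genes followed, with Id1 between 276 and 555 CPM per kb and Id3 between 332 and 384 CPM per kb, ranges that overlapped. Acvrl1 (87.4 to 112 CPM per kb) stood above Tgfbr2 (45.4 to 80.4 CPM per kb), and both stood above Bmpr2 (13.2 to 18.5 CPM per kb). Tgfbr1 (6.44 to 10.1 CPM per kb) and Smad7 (5.91 to 7.56 CPM per kb) overlapped. Smad6 (2.75 to 4.92 CPM per kb) and Tgfb1 (0.676 to 1.65 CPM per kb) were lowest. Tgfb1 ranked between the highest 55.1% and 70.7% of genes with reads.

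**Figure D1:**
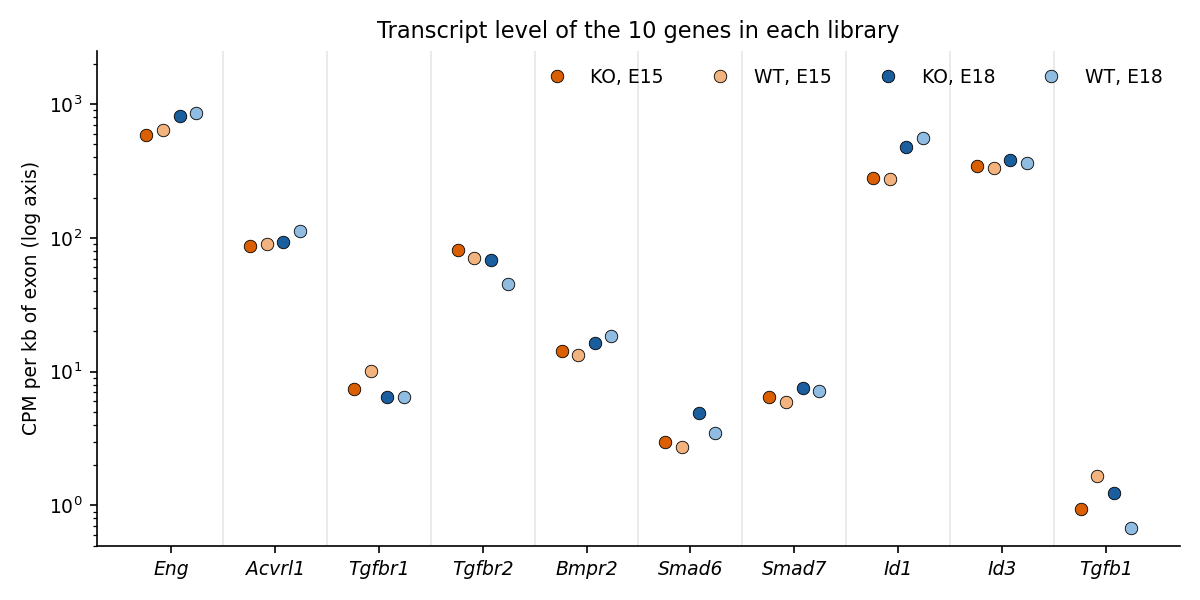
Level of each gene, in CPM per kb of annotated exon on a log axis, in the KO and WT libraries at E15 and E18; each point is 1 library. Eng lies highest and Tgfb1 lowest in every library, and the Id1 points separate by stage.

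The comparison of genotypes asked whether these genes had other levels in UCP2f/f;Tie2-cre than in WT endothelial cells. Past a 2-fold ratio lay 0 of the 10 genes at E15, where 6.87% of all 12633 genes did (3.55% higher and 3.32% lower), and 0 of 10 at E18, where 6.8% of 12349 did (2.88% higher and 3.92% lower). The median log2 ratio of KO over WT was 0.03 at E15 and 0.04 at E18, against -0.01 and 0.00 over all genes. Past 1.5-fold lay Tgfb1 at E15 and Tgfb1 and Tgfbr2 at E18, where 18.8% and 19.3% of all genes did. The edgeR quasi-likelihood test with stage as a second term and Benjamini-Hochberg adjustment called 0 of the 10 genes for genotype, and 3 of 13416 genes in all (0.0224%). Of the 10, 1 had an unadjusted p under 0.05, as had 5.12% of all genes, and DESeq2 also called 0 of the 10.

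Eng, the co-receptor gene (ENSMUSG00000026814, chromosome 2, 32646595 to 32682669), had 2367 CPM in KO and 2605 CPM in WT at E15, and 3271 CPM in KO and 3448 CPM in WT at E18. The KO library was the lower of the pair at both stages, with log2 ratios of -0.14 (interval -0.16 to -0.12) and -0.08 (interval -0.09 to -0.06), the second turning to 0.01 relative to the pan-endothelial markers without Flt1 and Cldn5. Ratios of this size or larger were found in 68.6% of genes at E15 and 83.2% at E18. Eng shares 61 exon bases with Fpgs on the opposite strand, which had 261 to 459 reads, and Eng at least 38644.

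Acvrl1, the type I receptor gene of the BMP side (ENSMUSG00000000530, chromosome 15, 101128522 to 101145336), had 373 CPM in KO and 383 CPM in WT at E15, and 399 CPM in KO and 477 CPM in WT at E18. The E15 libraries did not differ beyond counting error (log2 -0.04, interval -0.09 to 0.01, and 0.03 relative to the pan-endothelial markers without Flt1 and Cldn5), and at E18 the KO library was lower (log2 -0.26, interval -0.30 to -0.22). Tgfbr1, the type I receptor gene of the TGF-beta side (chromosome 4, 47353222 to 47414931), had 48.8 CPM in KO and 65.8 CPM in WT at E15, and 42.1 and 42.0 CPM in KO and WT at E18. Its WT library at E15 was the high one of the 4, and the KO ratio was -0.42 on the log2 scale at E15 (interval -0.57 to -0.30) and 0.00 at E18 (interval -0.14 to 0.14, and -0.04 relative to all pan-endothelial markers).

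Tgfbr2, the type II receptor gene that binds TGF-beta (ENSMUSG00000032440, chromosome 9, 116084293 to 116175360), had 658 CPM in KO and 579.7 CPM in WT at E15, and 559.6 CPM in KO and 372 CPM in WT at E18. The E18 WT library was the low one of the 4. KO over WT gave log2 0.18 at E15 (interval 0.14 to 0.22) and 0.59 at E18 (interval 0.55 to 0.63). Relative to the summed pan-endothelial markers the E15 value was -0.03, and without Flt1 and Cldn5 it was 0.25. Across both stages edgeR gave 0.39 ± 0.14 (SE) on the log2 scale, with an unadjusted p of 0.0282 and an adjusted p of 0.882, higher in KO in 2 of 2 pairs. Bmpr2, the type II receptor gene of the BMP side (chromosome 1, 59763400 to 59879014), had 258 CPM in KO and 238 CPM in WT at E15, and 293 CPM in KO and 333 CPM in WT at E18. Its log2 ratios lay on opposite sides of 0, at 0.11 (interval 0.05 to 0.18) and -0.19 (interval -0.24 to -0.14), and relative to the pan-endothelial markers the first was -0.09, or 0.18 without Flt1 and Cldn5.

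Smad6, whose product blocks BMP receptor signalling, had 155 reads in KO and 137 in WT at E15, and 347 in KO and 214 in WT at E18. These were 9.49 and 8.81 CPM, and 15.8 and 11.2 CPM, with the KO library at E18 highest. The log2 ratio was 0.10 at E15 (interval -0.23 to 0.45, and -0.09 relative to the pan-endothelial markers, or 0.16 without Flt1 and Cldn5) and 0.46 at E18 (interval 0.24 to 0.75). Smad7, which acts on both arms, had 29.2 CPM in KO and 26.7 CPM in WT at E15, and 34.2 CPM in KO and 32.5 CPM in WT at E18. Neither pair differed beyond counting error (log2 0.12, interval -0.06 to 0.32, and 0.07, interval -0.08 to 0.23), and relative to the pan-endothelial markers the first was -0.08, or 0.19 without Flt1 and Cldn5.

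Among the targets, Id1 (ENSMUSG00000042745, chromosome 2, 152736251 to 152737410) had 323 CPM in KO and 319.7 CPM in WT at E15, and 555 CPM in KO and 644 CPM in WT at E18. The E15 libraries did not differ beyond counting error (log2 0.01, interval -0.04 to 0.07, and -0.19 relative to the pan-endothelial markers, or 0.08 without Flt1 and Cldn5) and the KO library was lower at E18 (log2 -0.21, interval -0.25 to -0.18). Id3 (ENSMUSG00000007872, chromosome 4, 136143497 to 136145755) had 616 CPM in KO and 594 CPM in WT at E15, and 688 CPM in KO and 648 CPM in WT at E18. Its log2 ratios of 0.05 and 0.09 differed least between the stages among the 10 genes, and the first was -0.16 relative to the pan-endothelial markers, or 0.12 without Flt1 and Cldn5.

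Tgfb1, the ligand gene (ENSMUSG00000002603, chromosome 7, 25687002 to 25705077), had the largest genotype ratios of the 10 at both stages, in opposite directions. It had 78 reads in KO and 129 in WT at E15 (4.78 and 8.30 CPM), and 137 in KO and 65 in WT at E18 (6.23 and 3.41 CPM). KO over WT gave log2 -0.69 at E15 (interval -1.22 to -0.38) and 0.71 at E18 (interval 0.43 to 1.32), and ratios as large were found in 14.3% and 13.9% of genes. The pseudocount of 1 CPM shrinks these values. The microglial and macrophage markers moved with it: of those measured, 11 of 13 lay below 0 at E15 (median log2 -0.72) and 9 of 10 above 0 at E18 (median log2 0.58), with 0 of the 14 at 0 reads at E15 and 0 of the 13 listed at E18. Mural markers lay below 0 in 9 of 10 at E15 (median log2 -0.62) and above 0 in 6 of 10 at E18 (median log2 0.115). Fibroblast and neuronal medians lay below 0 at both stages. Medians of the erythroid list and of the neural progenitor and astrocyte list lay above 0 at E15 and below 0 at E18. The part of any of these cell types in the Tgfb1 ratios was not tested.

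**Figure D2:**
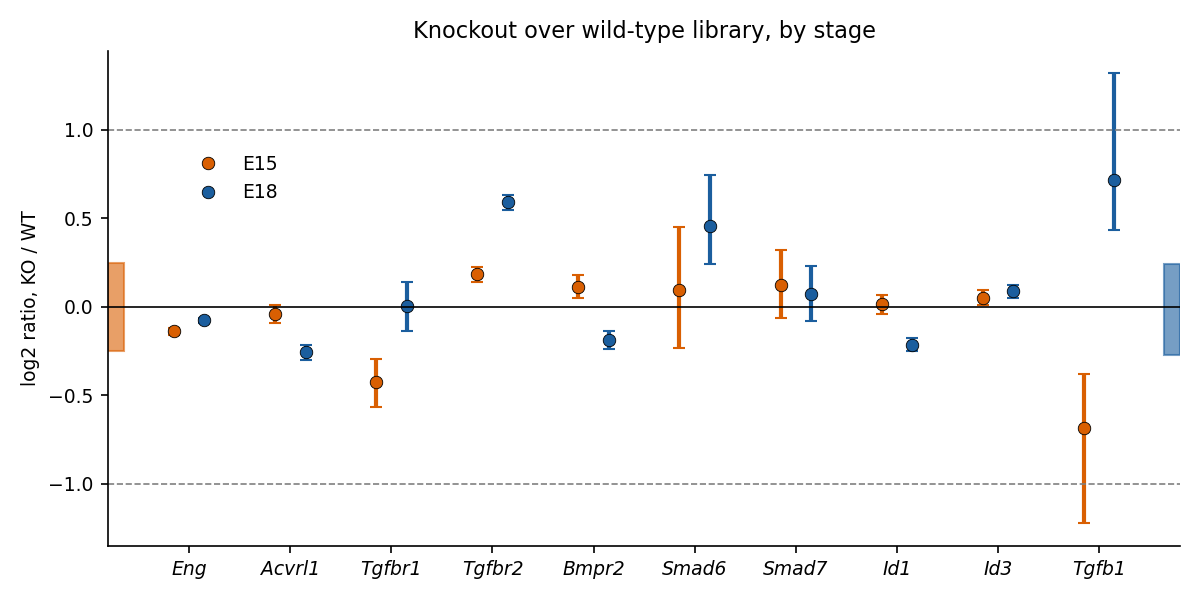
Log2 ratio of the KO over the WT library for each gene at E15 and E18; bars are 95% counting intervals, dashed lines mark 2-fold, and the coloured blocks at the edges run between the quartiles of all genes at each stage. Points lie within 2-fold for all 10 genes, and Tgfb1 lies at -0.69 at E15 and 0.71 at E18.

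The comparison of stages asked how the same genes differed between E18 and E15 within a genotype. Past 2-fold lay 0 of the 10 genes in KO, where 15.3% of all genes did (4.34% higher and 10.9% lower), and 2 of 10 in WT, where 10.7% did (3.08% higher and 7.58% lower). The 2 were Id1, higher at E18, and Tgfb1, lower at E18. Tgfb1 fell short of 2-fold with TMM factors (log2 -0.98), and Id1 did so relative to the pan-endothelial markers (log2 0.85). Past 1.5-fold lay 2 of 10 in KO, where 32.1% of all genes did, and 4 of 10 in WT, where 26.4% did. Against library totals the median over all genes was -0.10 in KO and -0.11 in WT, and TMM factors brought it to 0.01 and 0.00, so each stage ratio below would be about that much higher under TMM. The median of the 10 genes was 0.20 in KO and 0.29 in WT against library totals. Relative to the pan-endothelial markers it was 0.21 in KO and 0.14 in WT. Without Flt1 and Cldn5 in that scaling it was lower in both genotypes, at 0.05 in KO and 0.13 in WT.

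Id1 rose at E18 in the test across both genotypes, by 1.01 ± 0.13 (SE) on the log2 scale with TMM factors (edgeR's quasi-likelihood test, Benjamini-Hochberg adjusted p = 0.0236), and was higher at E18 in 2 of 2 pairs. It was the 1 gene of the 10 to pass, where 1.34% of all 13416 genes did, and 4 of the 10 had an unadjusted p under 0.05, as had 16.7% of all genes. The log2 ratio was 0.78 in KO (interval 0.74 to 0.83) and 1.01 in WT (interval 0.96 to 1.06). Relative to the pan-endothelial markers these were 0.79 and 0.85. Without Flt1 and Cldn5 the marker sum was higher at E18 (9979 CPM in KO and 10580 CPM in WT) than at E15 (8983 and 9414 CPM). Both Id1 ratios are therefore smaller in that scaling than against library totals. Mural markers were also more abundant at E18 in both genotypes, as given above, as were immediate early genes, which summed to 11880 CPM at E18 and 9191 CPM at E15 in KO, and to 19490 CPM at E18 and 10100 CPM at E15 in WT. Their part in the Id1 result was not tested.

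Eng was higher at E18 in both genotypes, by log2 0.47 in KO (interval 0.45 to 0.49) and 0.41 in WT (interval 0.39 to 0.42). Its adjusted p was 0.0539 by edgeR (0.55 ± 0.10, SE) and between 0.000405 and 0.094 over the alternatives, the lowest from DESeq2. Bmpr2 (0.18 in KO and 0.48 in WT) and Acvrl1 (0.10 in KO and 0.31 in WT) were likewise above 0, except that Acvrl1 in KO was -0.05 relative to the pan-endothelial markers without Flt1 and Cldn5, with edgeR adjusted p of 0.167 and 0.273. The TGF-beta receptors lay on the other side. Tgfbr1 stood at -0.21 in KO and -0.63 in WT, and Tgfbr2 at -0.23 in KO and -0.64 in WT, with edgeR adjusted p of 0.499 and 0.321. In WT neither receptor's interval reached that of Eng, Acvrl1 or Bmpr2.

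The inhibitory SMAD genes were above 0 in both genotypes. Smad6 gave log2 0.68 in KO (interval 0.46 to 1.02) and 0.32 in WT (interval 0.03 to 0.67), and Smad7 gave 0.22 and 0.27. Their edgeR adjusted p were 0.387 and 0.443. Id3, unlike Id1, hardly differed between stages, at 0.16 in KO and 0.12 in WT, or in WT -0.03 relative to the pan-endothelial markers and -0.04 without Flt1 and Cldn5. Tgfb1 stood at 0.32 in KO (interval -0.03 to 0.80) and -1.08 in WT (interval -1.74 to -0.84). Microglial and macrophage markers were lower at E18 in both genotypes, in 9 of 11 measured genes in KO (median log2 -1.38) and in 10 of 11 in WT (median log2 -2.82).

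**Figure D3:**
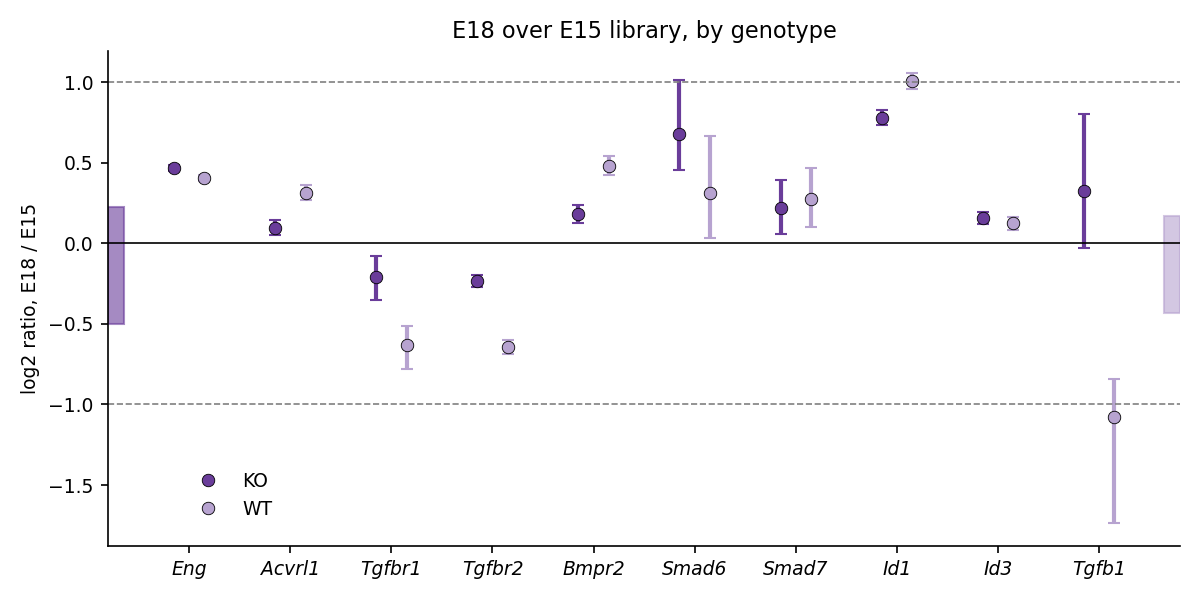
Log2 ratio of the E18 over the E15 library for each gene in KO and WT; bars are 95% counting intervals, dashed lines mark 2-fold, and the blocks at the edges run between the quartiles of all genes. Eng, Acvrl1, Bmpr2, Smad6, Smad7, Id1 and Id3 lie above 0 in both genotypes (Id3 in WT turns to -0.03 relative to the pan-endothelial markers, and Acvrl1 in KO to -0.05 without Flt1 and Cldn5), whereas Tgfbr1 and Tgfbr2 lie below 0.

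Ratios between genes within a library do not depend on the scaling between libraries. Per kilobase of exon, Acvrl1 exceeded Tgfbr1 by 11.7-fold in KO and 8.93-fold in WT at E15, and by 14.5-fold in KO and 17.4-fold in WT at E18. The 4 intervals did not overlap. Tgfbr2 exceeded Tgfbr1 by 10.8-fold in KO and 7.04-fold in WT at E15, and by 10.6-fold in KO and 7.05-fold in WT at E18, so that the KO libraries were alike and the WT libraries were alike at both stages. The ratio of Bmpr2 to Tgfbr2 was 0.178 in KO and 0.187 in WT at E15, and 0.238 in KO and 0.408 in WT at E18, which set the E18 WT library apart. Between the target genes, Id1 over Id3 was 0.809 in KO and 0.831 in WT at E15, and 1.25 in KO and 1.53 in WT at E18. With the exon lengths used, 1.16 kb for Id1 and 1.791 kb for Id3, Id3 was the more abundant per length at E15 and Id1 at E18, in both genotypes. The Id1 length equals its whole gene span, and other lengths could move these ratios across 1. The difference between stages does not depend on the lengths. Smad6 over Smad7 lay between 0.458 and 0.651, highest in KO at E18. Smad7 over Tgfbr1 was 0.865 in KO and 0.587 in WT at E15, and 1.17 in KO and 1.12 in WT at E18. 

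**Figure D4:**
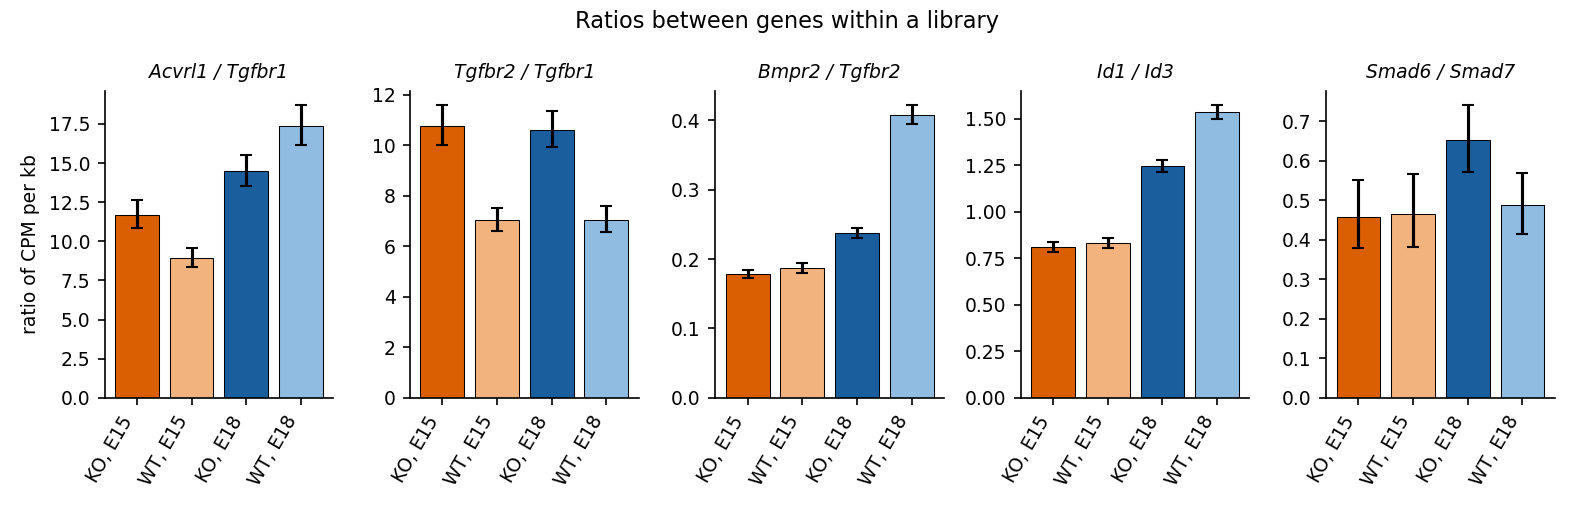
Ratios of CPM per kb between 2 genes within each KO and WT library at E15 and E18; bars are the ratio and whiskers its 95% counting interval. Id1 over Id3 is below 1 in both E15 libraries and above 1 in both E18 libraries, and Tgfbr2 over Tgfbr1 is higher in KO at both stages.

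The genes whose pattern over the 4 libraries was nearest to that of a member were sought for the 3 members with the widest range, among 7657 genes with at least 10 CPM in every library. With the root mean square difference of centred log2 CPM as the measure, Id1 was nearest to Epas1 (0.02), which encodes a hypoxia-inducible factor, then to Arhgef10 (0.02) and Nostrin (0.03), which encodes a protein that binds endothelial nitric oxide synthase. Epas1 had 902 CPM in KO and 891 CPM in WT at E15, and 1581 CPM in KO and 1768 CPM in WT at E18. Tgfbr2 was nearest to the mitotic kinase gene Aurka (0.02), Baz1b (0.03) and Xpo6 (0.03). Among the genes nearest to Tgfb1 were Mdm1 (0.05) and the cell division gene Cdca3 (0.06). These are descriptions over 4 libraries, with no test.

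Of 89 other genes of the pathway, grouped into 7 lists by role, 81 were listed in a table. Past 2-fold between genotypes lay 1 higher and 3 lower of 64 measured at E15, and 2 higher and 4 lower of 62 at E18, where 6.87% and 6.8% of all genes did in either direction. Their median log2 ratios were -0.09 and 0.02. The edgeR test of genotype called 0 of 67, with 5 at an unadjusted p under 0.05, as had 5.12% of all genes, and DESeq2 called 0 of 73.

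Among ligands and their handling, Tgfb2 was the most abundant ligand gene per length, at 78.7 CPM in KO and 61.7 CPM in WT at E15, and 101.5 CPM in KO and 96.9 CPM in WT at E18. It was above Tgfb1 in every library per length as well (mean of 14.6 against 1.13 CPM per kb). Of the genes for latency and activation, Nrros, which tethers latent TGF-beta to the cell surface and is best known from macrophages and microglia, stood highest, at 577 CPM in KO and 404 CPM in WT at E18 (log2 0.51), and 390.0 CPM in KO and 386 CPM in WT at E15 (log2 0.01). It exceeded the summed microglial and macrophage markers in KO at both stages and in WT at E18. In WT at E15 it lay below them (386 against 536 CPM). Which cells carried the Nrros transcript was not tested. Ltbp1, a latent TGF-beta binding protein gene, had 14 reads in KO and 45 in WT at E15 (log2 -1.07).

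Nrp1, a co-receptor gene better known for VEGF and semaphorin binding, was the most abundant of the other receptor genes per length, with 593 to 687 CPM. Acvr2b, a type II receptor gene for activins, had 213 reads in KO and 92 in WT at E15 (log2 1.02). Of the signal-carrying SMAD genes, 5 were measured in each comparison and 0 of 5 lay past 2-fold. Smad3, of the TGF-beta branch, averaged 24.5 CPM per kb and Smad5, of the BMP branch, 23.8 CPM per kb. Among intracellular regulators Fkbp1a, which encodes an immunophilin that binds type I receptors, was highest (410 CPM per kb). Nedd4l, a ubiquitin ligase gene, was lower in KO at both stages, with 69 reads in KO and 166 in WT at E15 (log2 -1.16), and 16 in KO and 96 in WT at E18 (log2 -1.80).

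Of the 18 reported target genes, 16 were measured. In KO at E18, 1 lay past 2-fold higher and 2 lower, where 2.88% and 3.92% of all genes did. Of these targets, Gja5, a connexin gene of arterial endothelium, had 143 reads in KO and 322 in WT (log2 -1.25). Atoh8, a helix-loop-helix gene induced by BMP, had 288 reads in KO and 95 in WT (log2 1.24). Tgfbi, a matrix protein gene named for its induction by TGF-beta, had 350 reads in KO and 750 in WT at E15 (log2 -1.13). The list as a whole lay on both sides of 0, with 7 above and 9 below at each stage. Of the extracellular antagonists, Bmper had 35 reads in KO and 101 in WT at E18 (log2 -1.28). Dcn, also a fibroblast marker, had 63 reads in KO and 0 in WT, which is 18.2-fold against a floor of 3 reads in the WT library. The counting interval of its log2 ratio starts at 3.85, and has no upper end.

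Between stages, 5 pathway genes lay past 2-fold higher and 8 lower in KO, and 4 higher and 4 lower in WT, of 62 and 63 measured, where 15.3% and 10.7% of all genes did in either direction. Among the largest in KO were Rgmb, a BMP co-receptor gene (34 reads at E18 and 195 at E15, log2 -2.35), Nedd4l (log2 -1.60), Lrrc32, which like Nrros tethers latent TGF-beta (1283 and 360 reads, log2 1.36), Acvr2b (log2 -1.31) and Zfyve9, a SMAD anchor gene (log2 -1.30). In WT they were Tgfbi (234 and 750 reads, log2 -1.89), Ltbp3 (log2 -1.58), Bmper (101 and 18 reads, log2 1.54), the cell cycle inhibitor gene Cdkn2b (1496 and 424 reads, log2 1.49), Bmp4 (log2 -1.16) and the protease gene Furin (log2 1.15). The edgeR test of stage called 2 of 67 pathway genes, both higher at E18, where it called 1.34% of all genes. The cell cycle inhibitor gene Cdkn1a, chosen after its values were seen, rose by 1.21 on the log2 scale (adjusted p = 0.0158). Junb, which is also an immediate early gene, rose by 0.80 (adjusted p = 0.0275), and lost its call with library totals and without a filter. DESeq2 called 4 of 73, adding Cdkn2b and Fn1.

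**Figure D5:**
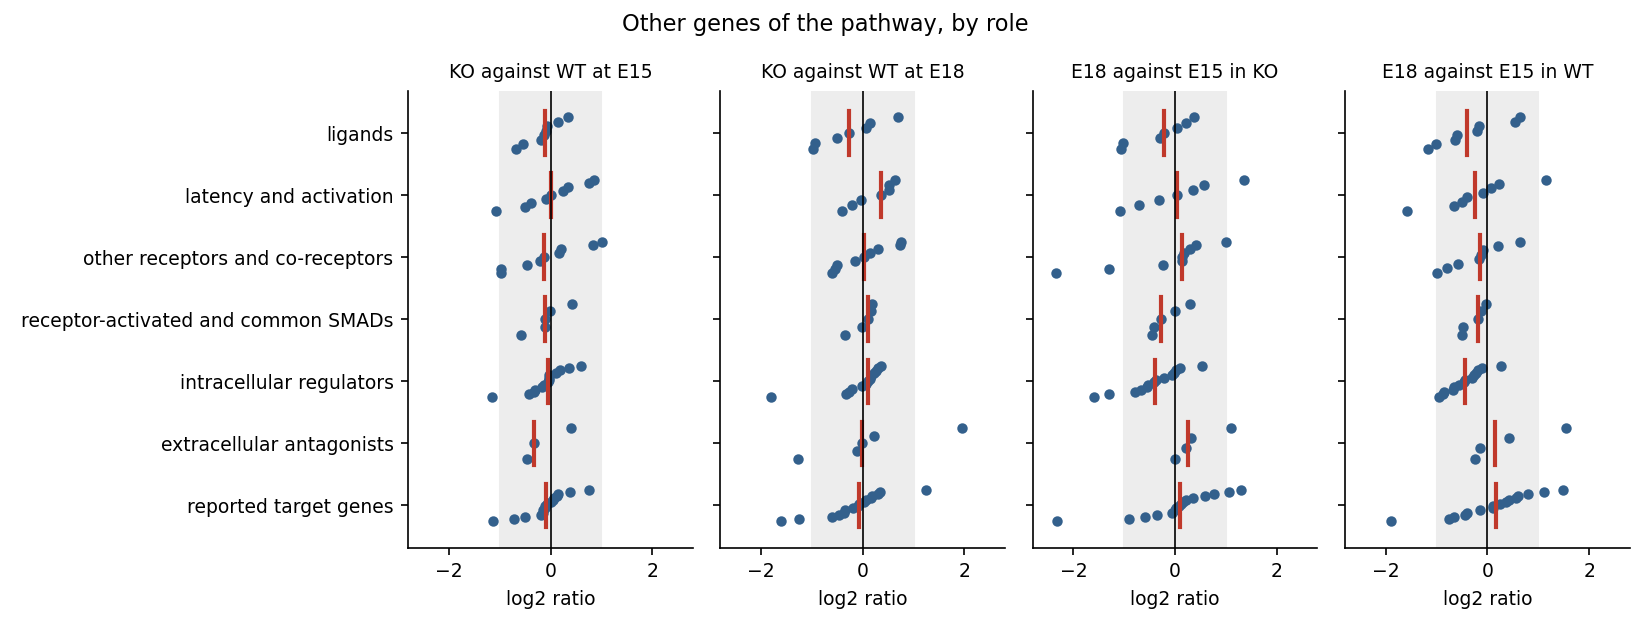
Log2 ratios of the other pathway genes by role in the 4 comparisons; each point is a gene, red bars are list medians, and the grey band marks ratios within 2-fold. Most points lie within the band, and every list but the SMAD genes has a point outside it in at least 1.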

How the data were processed

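Transcripts of brain endothelial cells were counted in 4 libraries, 1 for each genotype and stage. The authors deposited a table per stage with raw read counts per Ensembl gene, whole numbers that are not normalized, per the file headers. Beside them stand the authors' CPM, the deposited fold (ratio of the KO to the WT CPM), its log2 value, and deposited p-values from a test that the sources used here do not name. These authors' values were not used for any result. Alignment and counting are recorded only as tool names in the submitters' processing notes (HTSeq 0.6.0, TopHat2 2.0.12, Bowtie2 2.2.3), which also list the build mm9. Of 20159 gene identifiers found in GENCODE M21 on GRCm38, 90.1% matched it in start and end, all 10 members among them, so coordinates are read as GRCm38 and exon lengths were taken from that annotation. Whether counting used strand is not given, and Eng and Acvrl1 share 61 and 127 exon bases with genes on the opposite strand.

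Counts were scaled to library totals. The log2 ratio of 2 libraries was taken with a pseudocount of 1 CPM over genes with at least 1 CPM in either library and 50 reads over both, and called at 2-fold. Stage ratios used genes in both tables. The test across all 4 libraries used edgeR 4.0.16 (glmQLFit, glmQLFTest) with TMM factors, stage and genotype as terms, and was run on genes that reached 1 CPM in 2 or more libraries. It has 1 residual degree of freedom, so the other stage or genotype stands in for replicates and its p-values do not measure the spread between embryos. DESeq2 1.42.0 was an alternative. The procedures were tested on counts simulated with less spread between libraries than edgeR estimated here. Those simulations therefore do not show how the procedures perform at the spread of these data. The members and lists were chosen with earlier results of these data known. Other pathway genes are named where they passed 2-fold (the 6 largest per comparison) or were the most abundant of their list per length. Some genes that this rule or the likeness rule names are not reported here.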

Additional observations from a re-analysis of the deposited data

Results flagged for a closer look

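Bmpr2 and Tgfb1 had genotype ratios whose counting intervals lay on opposite sides of 0 at the 2 stages. For Bmpr2 the log2 ratio of KO over WT at E18 minus that at E15 was -0.30, with an E15 ratio of -0.09 relative to the pan-endothelial markers and of 0.18 relative to those without Flt1 and Cldn5. For Tgfb1 it was 1.40. Neither difference was tested, since a model with an interaction leaves no residual degrees of freedom. Under TMM factors and DESeq2 size factors the same 2 genes were found, and relative to the pan-endothelial markers they were Id3 and Tgfb1. Without Flt1 and Cldn5 in that scaling they were Bmpr2, Id1 and Tgfb1.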

How the results depend on the processing

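No paired analysis was possible because the groups compared share fewer than 2 replicate numbers, and leaving out a library was not possible in groups of 1. Scaling to the pan-endothelial markers without Flt1 and Cldn5 was chosen after seeing the data. Of 320 recomputed log2 ratios of the 10 genes, 250 stayed within the counting interval of the reported value, 70 moved beyond it, and 0 called ones reversed. Settings that change only the filter cannot alter a member's ratio, and their values are among the 250. A reversal was counted only for ratios past 2-fold, which were those of Id1 and Tgfb1 between stages in WT. Some smaller ratios changed sign when scaled to the pan-endothelial markers, with or without Flt1 and Cldn5, as given above. Past the lower threshold of 1.5-fold lay 1 member between genotypes at E15, 2 at E18, 2 between stages in KO and 4 in WT. The 2 members past 2-fold between stages in WT became 1 with TMM factors, DESeq2 size factors or scaling to the pan-endothelial markers, with or without Flt1 and Cldn5, and 0 with a pseudocount of 5 CPM. Over all genes, 868 and 840 lay past 2-fold between genotypes at E15 and E18, and 1904 and 1335 between stages in KO and WT. A pseudocount of 5 CPM left 238, 124, 779 and 429 in that order, and 1.5-fold gave 2375, 2387, 4004 and 3309. No filter gave 1416 at E15 and 1443 at E18, a pseudocount of 0.1 CPM 1292 at E18, and a filter at 5 CPM 486 at E18. Scaling to the pan-endothelial markers moved the share of higher genes among those past 2-fold from 51.6% to 33.1% at E15. TMM factors moved it from 28.9% to 39.7% between stages in WT, and scaling without Flt1 and Cldn5 to 18.6%. The genotype test called 49 genes with DESeq2, 0 with library totals and 0 without a filter, against 3. The stage test called 725, 102 and 92 in that order, against 180. Of the 10 genes, DESeq2 called 2 for stage, adding Eng (log2 0.55, adjusted p = 0.000405) to Id1, whose adjusted p lay between 1.97e-09 and 0.0446 over the alternatives. Tgfb1 and Smad6 rest on the fewest reads and have the widest intervals.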
